A study of Homo sapiens with 6 samples.

Results

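The 4 human alkaline phosphatase genes, ALPL, ALPG, ALPP and ALPI, were followed by bulk RNA-seq through the conversion of primed to naive human embryonic stem cells. They were taken by gene name from the deposited count table, in which each has 1 Ensembl identifier, as 4 of 48183 gene names. The cells are a human embryonic stem cell line that carries the EOS-GFP reporter, which the study used as a marker of the naive state. The labels call the line H1, whereas the study's methods call it H9. The naive group holds 4 libraries: 2 from cells treated with AICAR, an activator of the kinase AMPK (AICAR naive 1 and 2), 1 from cells treated with the histone deacetylase inhibitor VPA (VPA naive), and 1 from cells treated with doxycycline to switch on a constitutively active p38 kinase (CA-p38 naive). The primed group holds 2 libraries without naive induction, 1 from the EOS reporter line (EOS primed) and 1 from the reporter line that also carries the inducible p38 construct (CA-p38 primed). That construct is a piggyBac Tet-ON transgene expressed with rtTA and mCherry. When the line was made, its carriers were treated with doxycycline and sorted for mCherry. After induction the naive cells were recultured for several passages in PXGL medium and sorted for the surface proteins CD75 and SUSD2. The primed cells were grown without feeders in StemFit AK02N and were not sorted for them. Naive cells were kept on mouse embryonic fibroblast feeders, but the study also reports moving the CA-p38 cells to PXGL without feeders. Which of these holds for CA-p38 naive is not stated. State, medium and sort therefore cannot be told apart here, and feeder cannot be told from them with certainty. Libraries of different inductions or lines came from different cultures. The study lists different passages for the AICAR libraries, but no source states whether they came from separate inductions. The p-values therefore measure the spread between libraries that also differ in induction, line or passage. How much repeats of the same induction vary cannot be read from them.

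Alkaline phosphatases remove phosphate groups from many substrates at the outer face of the cell. They are zinc enzymes, held in the membrane by a glycosylphosphatidylinositol (GPI) anchor, and they act as dimers. ALPL is the tissue-nonspecific enzyme of bone, liver and kidney, where it breaks down pyrophosphate and pyridoxal phosphate. ALPP is the placental enzyme, ALPG (older symbol ALPPL2) the placental-like or germ cell enzyme, and ALPI the intestinal enzyme. Alkaline phosphatase activity is a classical stain for pluripotent stem cells, which does not tell these enzymes apart.

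ALPL lies alone on chromosome 1 (ENSG00000162551, GRCh38 chr1:21509397-21578410, forward strand). The other 3 genes lie side by side and in the same orientation on chromosome 2 (band 2q37), in the order ALPP (ENSG00000163283, chr2:232378724-232382889), ALPG (ENSG00000163286, chr2:232406844-232410714) and ALPI (ENSG00000163295, chr2:232456125-232460753). The coding sequences of ALPG and ALPP were 97.8% identical and their proteins differed at 16 of 532 aligned residues. ALPG and ALPI were 89.5% identical over the coding sequence, and ALPL was between 64.2% and 64.6% identical to the 3 others. How alike they are bears on every count below, because a read that lies where paralogs are identical can be given to either gene. ALPG and ALPP shared an unbroken 339 bases of coding sequence across exons 8 to 10. Of all windows of 100 bases in the ALPG transcript, 15.8% occurred unchanged in ALPP, and of those in ALPP, 14.3% occurred in ALPG. With windows of 50 bases the share of ALPG was 29.3%. ALPI shared no window of 100 bases with either of them, but its longest identical stretches were 60 bases with ALPG and 75 with ALPP, and 0.491% of the 50-base windows of ALPG and 1.40% of those of ALPP occurred in ALPI. ALPL shared no window of 50 bases with the others. Since the read length is not stated, the split between ALPG and ALPP is uncertain in the shared part, and so are low counts of ALPI beside high counts of both.

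The sequences before the start sites are shown because the 3 genes of 2q37 moved together and ALPL did not move with them. Each run holds 250 bases before and 50 bases after the start site, from RefSeq on GRCh38.p14, forward strand, and capitals mark TTTAAA and CCACACCC on either strand. For ALPL, which has 3 listed start sites, the middle one is printed:

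ALPP, chr2:232378501-232378800: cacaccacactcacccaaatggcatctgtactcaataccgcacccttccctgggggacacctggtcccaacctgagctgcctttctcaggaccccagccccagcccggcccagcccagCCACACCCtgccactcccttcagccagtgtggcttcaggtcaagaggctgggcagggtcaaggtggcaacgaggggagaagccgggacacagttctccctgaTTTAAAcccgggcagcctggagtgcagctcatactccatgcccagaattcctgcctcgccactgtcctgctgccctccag
ALPG, chr2:232406594-232406893: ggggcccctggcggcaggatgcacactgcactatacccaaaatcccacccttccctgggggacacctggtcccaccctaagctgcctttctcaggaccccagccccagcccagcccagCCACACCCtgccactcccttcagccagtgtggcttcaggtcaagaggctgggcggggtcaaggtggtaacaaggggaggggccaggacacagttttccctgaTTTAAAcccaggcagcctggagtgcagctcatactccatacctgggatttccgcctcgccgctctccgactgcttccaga
ALPI, chr2:232455903-232456202: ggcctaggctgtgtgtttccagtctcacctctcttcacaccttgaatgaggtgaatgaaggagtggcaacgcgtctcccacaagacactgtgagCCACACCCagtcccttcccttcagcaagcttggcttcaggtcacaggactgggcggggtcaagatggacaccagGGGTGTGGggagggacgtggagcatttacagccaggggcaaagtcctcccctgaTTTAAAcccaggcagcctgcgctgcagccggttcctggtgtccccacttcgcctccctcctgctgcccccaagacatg
ALPL, chr1:21509173-21509472: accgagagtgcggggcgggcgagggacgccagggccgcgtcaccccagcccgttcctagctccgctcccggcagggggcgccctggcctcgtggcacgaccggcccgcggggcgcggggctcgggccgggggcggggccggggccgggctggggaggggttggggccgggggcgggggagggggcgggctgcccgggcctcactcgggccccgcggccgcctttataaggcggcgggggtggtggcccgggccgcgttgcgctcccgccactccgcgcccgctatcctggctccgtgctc

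The ALPP and ALPG sequences were 84.1% identical over 295 aligned bases, with a longest identical run of 64 bases. ALPI was 66.5% identical to ALPP and 65.8% to ALPG. All 3 held CCCTGATTTAAACCC, their longest common run of 15 bases. The motifs searched were chosen after these sequences had been seen, and a match is a description of letters only. TTTAAA, an AT-rich box, began at position -30 in ALPP and ALPG and -28 in ALPI, and stood in 12.2% of all 35116 RefSeq promoters of this length, both strands searched. CCACACCC, a CACCC box, stood once in ALPP and ALPG, at -132, and at 2 places in ALPI, and in 3.28% of all promoters. AGGTCA, the core letters read by many nuclear receptors, stood once in each of the 3 and in 13.8% of all promoters. None of the 3 ALPL start sites held any of these motifs. The middle ALPL start site was 82.3% G and C, with 2 GC boxes (GGGCGGGG, in 22.8% of all promoters), and it held TATAAA on the reverse strand at -29 (11.5% of all promoters). GGGCGGGG also stood once in ALPG and once in ALPI. GCCNNNGGC, the letters of a TFAP2 site, stood at 2 places in the middle ALPL start site, once each in ALPG and ALPI and in 23.2% of all promoters. The octamer ATTTGCAT (1.77% of all promoters) and TCAAGGTCA, the letters of an ESRRB site (0.353%), were in none of these windows. AGGTCA lies within TCAAGGTCA.

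The total number of counts ran from 46823699 to 54277064 per library. The markers checked against the labels followed them: 7 of 7 naive markers rose and 7 of 7 primed markers fell in naive cells. SUSD2 was among the markers and was also used for the sort. Over all genes, 26497 names were tested with the quasi-likelihood test of edgeR, and 53.1% were called at an adjusted p under 0.05. The share called higher in naive cells was 26%, the share called lower was 27%, and 32.9% of the tested names had every naive library above both primed libraries. The median log2 fold change of all tested names was 0.11. Against this background 4 of the 4 alkaline phosphatase genes passed the filter and 4 were called higher. ALPP and ALPI passed it only through the naive libraries, where they are high. The genes of 2q37 may share reads, so that their calls are not independent. The call of ALPL was lost in 6 of 15 alternative runs.

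ALPG rose from near absence to one of the most abundant messages of the naive cells. Levels are given as CPM, the counts of a gene relative to the total of its library after TMM scaling. In naive cells ALPG stood at 2442 CPM in AICAR naive 1, 2427 in AICAR naive 2, 2390 in CA-p38 naive and 1976 in VPA naive, and in primed cells at 1.41 CPM in EOS primed and 0.511 in CA-p38 primed. The AICAR and CA-p38 libraries lay close together, VPA naive lay below them, and no naive library came near a primed one. The mean was 2309 ± 223 CPM (SD, n = 4) against 0.963 ± 0.639 (SD, n = 2), a log2 fold change of 11.22 with a standard error of 0.32 and an adjusted p of 3.74e-11. The primed values rest on 70 and 25 counts, and the naive values on 103413 to 132692. Without CA-p38 primed the log2 fold change was 10.68 and without EOS primed it was 12.12, so that its size was set by the few primed counts. Per kilobase of transcript, ALPG ranked between 73 and 103 of 19643 protein-coding genes in the naive libraries, and 13001 and 14503 in the primed libraries.

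ALPP moved in the same direction from a lower level. Its values were 317 CPM in AICAR naive 1, 300.2 in AICAR naive 2, 280 in CA-p38 naive and 258 in VPA naive, against 0.0606 CPM in EOS primed and 0.164 in CA-p38 primed. The order of the naive libraries was the one seen for ALPG, and the groups did not overlap. The mean was 289 ± 25.2 CPM (SD, n = 4) against 0.112 ± 0.0728 (SD, n = 2), with a log2 fold change of 11.30 (SE 0.25, adjusted p from edgeR 1.02e-11). Only 3 and 8 counts stood behind the primed values, whose 95% counting intervals were 0.0125 to 0.177 CPM and 0.0706 to 0.322 CPM. The counting intervals given here cover counting error only. The log2 fold change was 10.75 without EOS primed and 12.17 without CA-p38 primed. In naive libraries the ALPP counts were between 11.7% and 13.1% of those of ALPG. That is below the 15.8% of 100-base windows of ALPG, and the 29.3% of 50-base windows, that ALPP also holds. The part of reads from ALPG in the ALPP counts was not tested.

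ALPI had counts in each naive library and in no primed library. It had 435 counts in AICAR naive 1, 315 in VPA naive, 298 in CA-p38 naive and 268 in AICAR naive 2, which is 8.01, 6.02, 5.90 and 5.40 CPM. In both primed libraries it had 0 counts, which allows up to 0.0606 CPM in EOS primed and 0.0613 in CA-p38 primed, the level of 3 counts in each library. The naive mean of 6.33 ± 1.15 CPM (SD, n = 4) was 103-fold the level of 3 counts in CA-p38 primed, and the edgeR test gave an adjusted p of 6.19e-08. These counts were between 0.222% and 0.328% of those of ALPG in the same library, which is below the 0.491% of 50-base windows of ALPG that ALPI also holds. The part of reads from ALPG and ALPP in the ALPI counts was not tested. Per kilobase, ALPI ranked between 9727 and 10801 of 19643 protein-coding genes in the naive libraries. Of 6 intestinal markers 3 were tested, of which 1 rose and 1 fell, where 26% of all tested names rose and 27% fell. FABP2 lay between 0.129 and 0.325 CPM in naive libraries, and SI, APOA4 and MEP1A at or under 0.0396 CPM. VIL1, which codes for the microvillus protein villin, fell (log2 fold change -1.21, adjusted p 0.000289) and the homeobox gene CDX1 rose (5.01, adjusted p 7.71e-05).

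ALPL, the gene that primed cells already used, differed little between the states. Its level was 140 CPM in CA-p38 naive, 137 in AICAR naive 1, 125 in VPA naive and 106 in AICAR naive 2, against 100.4 in EOS primed and 99.2 in CA-p38 primed. All naive libraries lay above both primed libraries, as did 32.9% of all tested names, but AICAR naive 2 lay close to them, with a 95% counting interval of 103 to 109 CPM beside 97.6 to 103 in EOS primed. The mean was 127 ± 15.6 CPM (SD, n = 4) against 99.8 ± 0.851 (SD, n = 2). The log2 fold change was 0.35 (SE 0.12) with an adjusted p of 0.0305 by edgeR, beside the median of 0.11 over all tested names. The call did not hold with DESeq2 (log2 fold change 0.30, adjusted p 0.0699) or with median-ratio size factors (0.30, adjusted p 0.0668), and over 15 alternatives the adjusted p ran from 0.00514 to 0.115. It was also lost without CA-p38 naive (0.28, adjusted p 0.0889), without AICAR naive 1 (0.30, adjusted p 0.0910) and without either primed library (0.34 and 0.35, adjusted p 0.115 and 0.114). Leaving out a primed library leaves 1 in that group, which is then assumed to vary like the naive libraries.

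**Figure D1:**
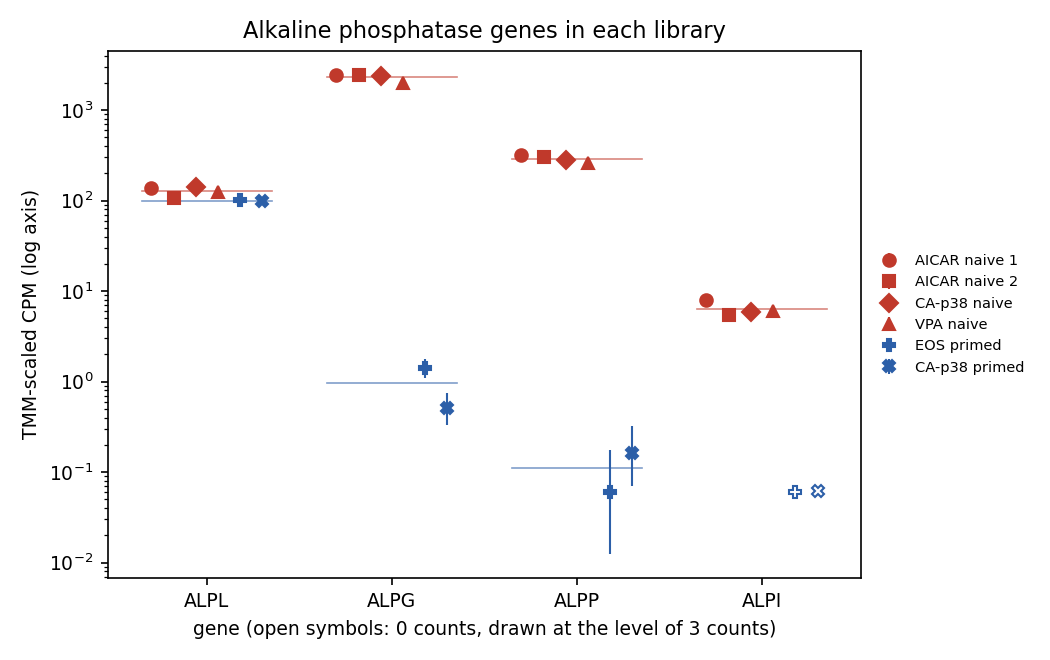
TMM-scaled CPM of ALPL, ALPG, ALPP and ALPI (log axis) in the 4 naive (red) and 2 primed (blue) libraries, with vertical bars for the 95% counting interval and horizontal lines for the group means. ALPL lies between 99.2 and 140 CPM in all 6 libraries, whereas the other genes lie far apart between the states, and the open symbols mark the 0 counts of ALPI in primed libraries, drawn at the level of 3 counts.

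Put per kilobase of transcript, so that genes can be set beside each other, the order of the naive levels was ALPG (926 CPM per kb), ALPP (105), ALPL (50.1) and ALPI (1.95). In the naive libraries the lowest ALPP value (93.8 CPM per kb) lay above the highest ALPL value (55.3), and the other neighbours in this order were farther apart. ALPP counts may hold reads from ALPG, and the part of this in the place of ALPP above ALPL was not tested. In primed cells the order was ALPL (39.4 CPM per kb), ALPG (0.386), ALPP (0.0407) and ALPI (listed at 0). There ALPL stood far above the rest and ALPG above ALPP in both libraries. ALPP in EOS primed was at the level of 3 counts and could not be told from the 0 of ALPI at this depth.

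The make-up of the alkaline phosphatase counts therefore turned over. ALPG held 85.5% of the counts of the 4 genes in AICAR naive 2, 84.9% in CA-p38 naive, 84.1% in AICAR naive 1 and 83.5% in VPA naive, but 1.39% in EOS primed (95% Clopper-Pearson interval 1.08 to 1.75) and 0.512% in CA-p38 primed (0.331 to 0.755). ALPL held 98.6% in EOS primed and 99.3% in CA-p38 primed, and between 3.73% and 5.28% in the naive libraries. Its small share in naive cells came with a level that was no lower than in primed cells. ALPP held between 9.93% and 10.9% in naive libraries, and 0.0595% and 0.164% in the primed ones. ALPI held between 0.190% and 0.276% in naive libraries and 0 of 5042 and 0 of 4885 counts in the primed ones, which allows a share of up to 0.0595% and 0.0614%. These shares are a description of the members together and carry no test.

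**Figure D2:**
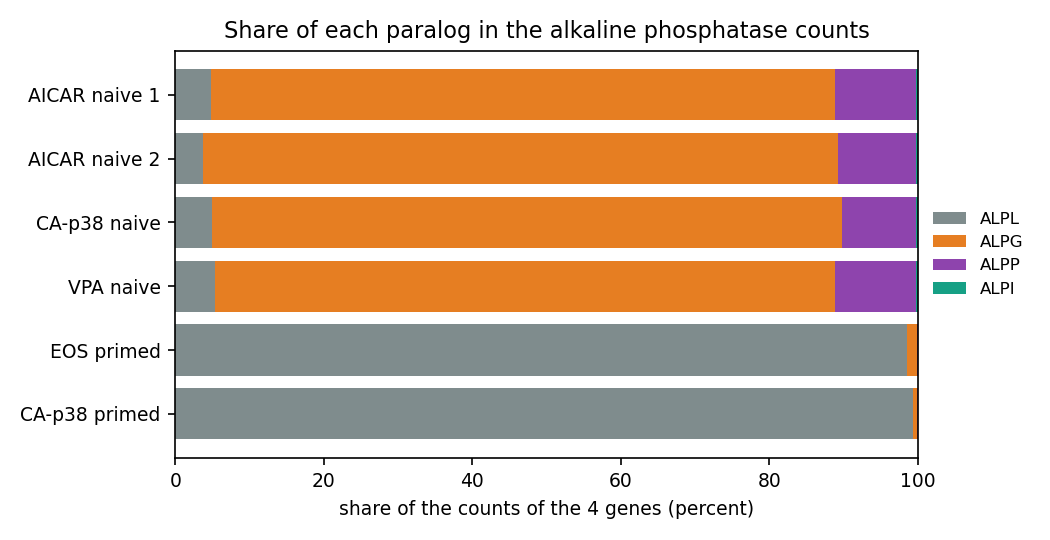
Share of each paralog in the summed counts of the 4 alkaline phosphatase genes, in percent, for each library. ALPG fills between 83.5% and 85.5% of the bar in the 4 naive libraries and ALPL at least 98.6% in the 2 primed libraries, and ALPI is the thin strip at the right end of the naive bars.

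Summed over the 4 genes, the level was 2904 CPM in AICAR naive 1, 2838 in AICAR naive 2, 2816 in CA-p38 naive and 2365 in VPA naive, against 102 in EOS primed and 99.9 in CA-p38 primed. The ratio of the group means was 27.1, and 27.2 when each gene was divided by its transcript length. The primed sum was almost wholly ALPL, and the naive sum was mostly ALPG. The 4 genes took between 0.239% and 0.301% of all counts in naive libraries, and 0.00993% and 0.00934% in primed ones. As in any bulk sample, fewer cells that express a gene and less RNA of it per cell cannot be told apart, in primed cells in particular.

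Within naive cells the paralogs of 2q37 kept a narrow ratio. ALPP counts were 13.1% of ALPG counts in VPA naive, 13.0% in AICAR naive 1, 12.4% in AICAR naive 2 and 11.7% in CA-p38 naive. The counts of ALPI were 0.328% of those of ALPG in AICAR naive 1, 0.305% in VPA naive, 0.247% in CA-p38 naive and 0.222% in AICAR naive 2. ALPI thus varied more, with a highest naive level 1.48 times the lowest, against 1.24 for ALPG and 1.23 for ALPP. In primed cells the ratio of ALPP to ALPG was 4.29% in EOS primed and 32.0% in CA-p38 primed, with 95% counting intervals of 0.863 to 13.1% and 12.5 to 73.2%, which barely overlap each other and both reach the naive range. Reads from the shared coding stretch may be split between ALPG and ALPP in the counting, and the part of this in the ratio was not tested.

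Each induction can be set beside the primed line it came from, although each of those lines has 1 library. ALPG stood 1726-fold higher in AICAR naive 1, 1716-fold in AICAR naive 2 and 1397-fold in VPA naive than in EOS primed, and 4675-fold higher in CA-p38 naive than in CA-p38 primed. Against the mean of both primed libraries these folds were 2536, 2520, 2052 and 2482, so that the high value of CA-p38 came with the low count of its parental library. ALPP was 5221-fold (95% counting interval 1786 to 25319), 4952-fold (1694 to 24018) and 4262-fold (1458 to 20669) higher than its 3 counts in EOS primed, and in CA-p38 naive it was 1710-fold (867 to 3961) higher than its 8 counts in CA-p38 primed. Against the mean of both primed libraries the folds of ALPP were 2823 and 2678 in the AICAR libraries, 2305 in VPA naive and 2495 in CA-p38 naive. With the 0 parental counts read as 3, ALPI was 132-fold higher in AICAR naive 1, 89.0-fold in AICAR naive 2, 99.3-fold in VPA naive and 96.2-fold in CA-p38 naive. The lower ends of its 95% counting intervals were 107, 71.9, 80.3 and 77.7 in the same order. ALPL was 1.37-fold, 1.05-fold, 1.24-fold and 1.41-fold higher in the same order. The gain of the 2q37 genes was thus seen with every induction, and that of ALPL was smallest in AICAR naive 2.

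The primed counts of ALPG were uneven. EOS primed had 2.77 times the ALPG level of CA-p38 primed, with a counting interval of 1.73 to 4.56. The 7 naive markers were also each higher in EOS primed, DNMT3L by 2.96 times (48 against 16 counts), DPPA5 by 2.68 times (19 against 7), SUSD2 by 1.92 times (140 against 72), and KLF4 and TFCP2L1 by 1.18 and 1.04 times. ALPG in EOS primed was 0.0613% of its naive mean, DNMT3L 0.0739% and DPPA5 0.0618%. In CA-p38 primed these shares were 0.0221%, 0.0249% and 0.0230%. ALPP went the other way, with 3 counts in EOS primed and 8 in CA-p38 primed. With 1 library of each line there is no test between them, and the part of this in the ALPG values was not tested.

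The chromosomal neighbours of the 2q37 genes were counted by identifier, because unrelated transcripts of the region share a clone name. ECEL1P1, a pseudogene on the opposite strand between ALPG and ALPI (chr2:232415818-232419816), rose with them, from 0.0711 ± 0.0138 CPM (SD, n = 2) to 154 ± 26 (SD, n = 4). Its log2 fold change was 11.02 (SE 0.32, adjusted p from edgeR 1.13e-10), with 4 and 3 counts behind the primed values. It was lowest in AICAR naive 2 (115 CPM), unlike ALPG, and lay between 164 and 169 CPM in the 3 other naive libraries. A long noncoding RNA beside it (ENSG00000237087, chr2:232420661-232421461) stood at 24.3 ± 3.57 CPM (SD, n = 4) in naive cells and had 0 and 1 counts in primed cells (adjusted p 1.43e-09). The long noncoding RNA ENSG00000224516 overlaps ALPP on the opposite strand, and lay between 5.36 and 7.85 CPM in naive libraries and at 0 counts in primed ones (adjusted p 8.14e-08). Whether the counting used strand is not stated, so that reads of this RNA and of ALPP cannot be told apart with certainty. The pseudogene ECEL1P2, between ALPP and ALPG, rose as well (3.85, adjusted p 0.000695). ECEL1P3, outside the cluster before ALPP, was at 0 in primed cells and at most 0.248 CPM in naive cells (6.41, adjusted p 0.00574). DIS3L2P1, before ALPI, had no more than 1 count in any library. The tested genes of this paragraph passed the filter only through the naive libraries, as did ALPP and ALPI. Their calls therefore lend no support of their own.

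Beyond ECEL1P3 on one side and ALPI on the other the change fell away. On the far side of ALPI, ECEL1, which codes for a membrane peptidase of neurons, rose from 3.47 ± 0.661 CPM (SD, n = 2) to 29.2 ± 5.01 (SD, n = 4), a log2 fold change of 3.06 (adjusted p 2.2e-07). Beyond it, CHRNG, a subunit of the fetal muscle acetylcholine receptor, had a log2 fold change of 0.94 (adjusted p 0.0726) and TIGD1 one of 0.47 (adjusted p 0.0592). On the near side, DIS3L2, an RNA exonuclease gene, had a log2 fold change of -0.13 (adjusted p 0.429). A pseudogene next to it (ENSG00000251485) had one of 0.34 (adjusted p 0.521). Around ALPL, NBPF3 (-0.04, adjusted p 0.822), HS6ST1P1 (0.43, adjusted p 0.152), NBPF2P (2.76, adjusted p 0.0592, at most 0.325 CPM) and RAP1GAP (0.46, adjusted p 0.0744) did not pass the test. USP48, a ubiquitin protease gene, rose (0.47, adjusted p 0.00336), and LDLRAD2 fell (-1.41, adjusted p 0.000306).

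**Figure D3:**
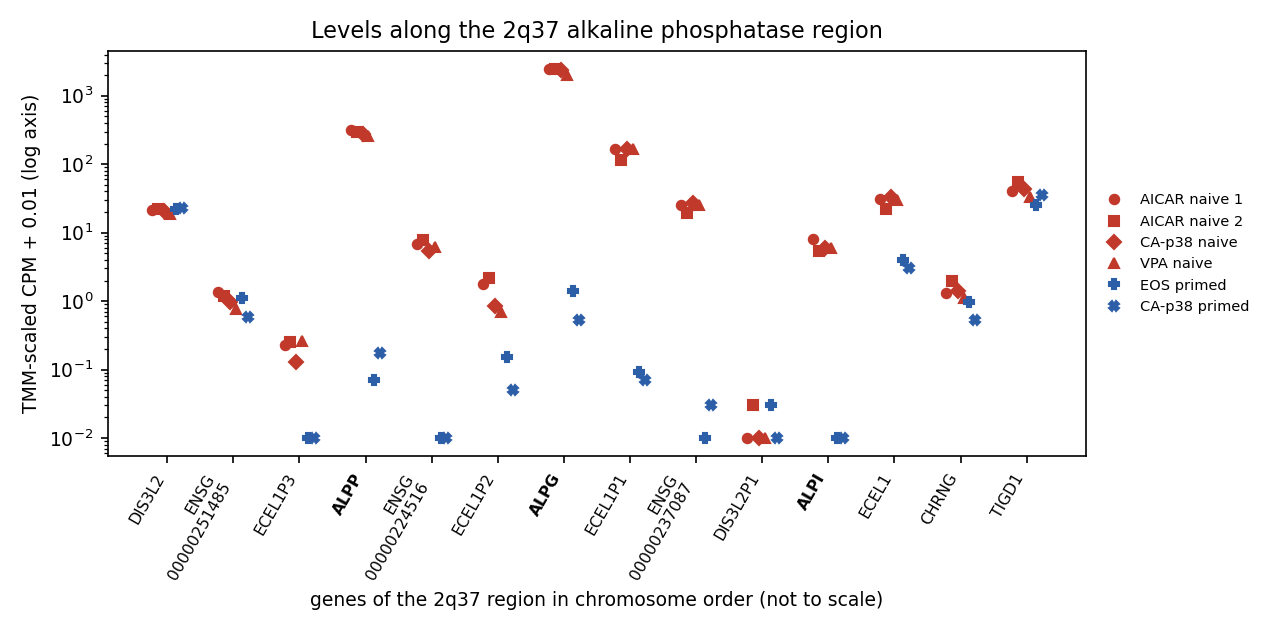
TMM-scaled CPM plus 0.01 (log axis) of the genes in and around the alkaline phosphatase cluster of chromosome 2, in chromosome order and not to scale, with 1 symbol per library (naive red, primed blue). Between ECEL1P3 and ALPI all tested genes are higher in naive libraries, and DIS3L2 at the left lies between 19.0 and 23.1 CPM in all 6 libraries.

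Genes whose profile over the 6 libraries was most like that of ALPG were sought by the distance between centred log2 CPM values, among 12603 names with a mean of at least 5 CPM. The 5 nearest were DPPA5 (distance 0.293), DNMT3L (0.362), KHDC1L (0.588), ZNF729 (0.592) and NLRP7 (0.651). ALPP itself was at 1.95, with 12 names nearer. For ALPP the nearest were DPPA3P2, PEG3, ATP6V1B1, ECEL1P1 and FOXR1, between 1.20 and 1.62, with ALPG behind 9 names. Their distances depend on the few primed counts. Among the nearest to ALPL were TMEM94, FUT10, AKIRIN2 and ZNF525, between 0.118 and 0.161, whereas ALPG and ALPP were at 12.8 and 12.7. The distances are a description over 6 libraries, of which 4 share 1 state.

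ALPG and ALPP are genes of trophoblast, so trophoblast markers were read beside them. Of 12 listed markers 7 were tested, and 4 of them rose: GATA2 (log2 fold change 4.45), HAND1 (4.0), GCM1 (3.65) and the keratin gene KRT7 (1.08). Over all tested names 26% rose and 27% fell, which is the background of each marker count in this paragraph. The summed level of the list was 29.6 to 34.8 CPM in naive libraries and 6.61 to 7.38 in primed ones. The hormone genes CGA and CGB5 lay at or under 0.322 CPM in every naive library, CGB5 with 0 counts, and TP63, VGLL1, XAGE2 and ERVFRD-1 at or under 0.282 CPM. GATA3, a defining factor of trophoblast, lay between 0.382 and 2.45 CPM in naive and at 0.162 and 1.45 CPM in primed libraries (0.86, adjusted p 0.393). Of 7 germ cell markers 6 were tested: MAEL (8.02), PRDM1 (4.43), DDX4 (4.42, at most 0.564 CPM) and DND1 (2.21) rose, KIT (-2.20) and DAZL (-7.32) fell, and NANOS3 had 0 counts in all naive libraries. None of 7 tested fibroblast markers rose and 4 fell, with a summed level of 30.9 to 72.9 CPM in naive against 191 to 210 CPM in primed libraries. The part of these other cell type markers in the ALPG and ALPP values was not tested. Of the 5 osteoblast markers 3 were tested, RUNX2 (-3.05) and the bone matrix gene SPP1 (-1.43) fell, and SP7 and IBSP lay at or under 0.141 CPM.

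An alkaline phosphatase needs a GPI anchor to stay on the cell, and the genes that build it were called about as often as genes in general. Of 22 synthesis and transfer genes 4 rose, 7 fell and 11 did not pass the test, where 26% of all tested names rose and 27% fell. Their median log2 fold change was -0.07, beside 0.11 over all tested names. PIGL, the enzyme of the second step, which removes an acetyl group, had the largest change of the list: it lay between 120 and 138 CPM in naive libraries and at 16.1 and 13.7 in primed ones (3.08, SE 0.13, adjusted p 1.1e-09). PIGG (0.60), PIGO (0.56) and GPAA1 (0.34) rose less. PIGK, the catalytic subunit of the transamidase that attaches the anchor, fell (-0.96), as did PIGF (-0.96), PIGC (-0.92) and the transamidase subunits PIGU (-0.78) and PIGT (-0.59). Among 4 remodelling genes, PGAP1, which takes a fatty acid off the inositol of the anchor, fell from 31.8 and 33.5 CPM to between 1.17 and 1.44 CPM (-4.62, SE 0.17, adjusted p 3.64e-10), PGAP2 fell (-0.86), and MPPE1, which takes a side group off the glycan, rose (1.53). PGAP3 did not pass the test (0.02, adjusted p 0.956).

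Among 24 listed genes of other proteins that share the anchor, 15 fell, 5 rose and 4 did not pass, beside 27% of all tested names that fell and 26% that rose. Their median log2 fold change was -1.42, beside 0.11 over all tested names. THY1 fell from 457 and 506 CPM to between 0.699 and 1.07 (-9.11, adjusted p 5.46e-12), as did GPC4, a glypican (-5.84), and CD24, a mucin-like surface protein (-5.36). Those that rose were MELTF (3.05), the ephrin gene EFNA1 (2.49), the folate receptor gene FOLR1 (2.34), the complement regulator CD55 (1.53) and TDGF1 (0.37). The summed level of this list was 670 to 789 CPM in naive libraries and 2555 to 3075 in primed ones, whereas ALPG alone was at least 1976 CPM in naive libraries.

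Zinc reaches these enzymes through transporters of the secretory pathway. SLC30A5 rose (0.90, SE 0.12, adjusted p 4.45e-05), from 39.5 and 48.2 CPM to between 77.2 and 86.8. Its partner SLC30A6 (-0.30, adjusted p 0.0541) and SLC30A7 (0.01, adjusted p 0.964) did not pass the test.

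The genes around the substrates of ALPL were mixed. The counts below stand beside 26% of all tested names that rose and 27% that fell. Of 8 genes of pyrophosphate and extracellular nucleotides 7 were tested: ENPP1, the main source of extracellular pyrophosphate, fell (-1.29, SE 0.13, adjusted p 2.6e-06), ENTPD1, which degrades extracellular ATP, fell (-0.76), the pyrophosphate exporter gene ANKH (0.48) and ABCC6 (1.01) rose, and NT5E, ENTPD2 and ENTPD3 did not pass. Of the genes of vitamin B6 metabolism, PDXK (0.48), which phosphorylates the vitamin, rose, and the pyridoxal phosphatase gene PDXP (-0.68), PLPBP (-1.32) and AOX1 (-5.37) fell. Of 4 tested phosphate carriers 3 fell, the exporter gene XPR1 (-1.85) and the importer genes SLC20A2 (-1.32) and SLC20A1 (-1.08), and SLC34A2 rose (2.48), with 10.8 and 16.5 CPM in the AICAR libraries and 4.47 and 3.29 in CA-p38 naive and VPA naive. Of the other phosphatases 3 of 6 rose: ACP5, the tartrate-resistant acid phosphatase of osteoclasts (5.06, adjusted p 5.97e-09), PHOSPHO1, which acts with ALPL in bone mineral (4.25, adjusted p 1.73e-05), and ACP3, the prostatic acid phosphatase (4.10, adjusted p 5.33e-07). ACP1 (-0.67) and ACP2 (-0.89) fell and PHOSPHO2 did not pass (-0.34, adjusted p 0.407).

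**Figure D4:**
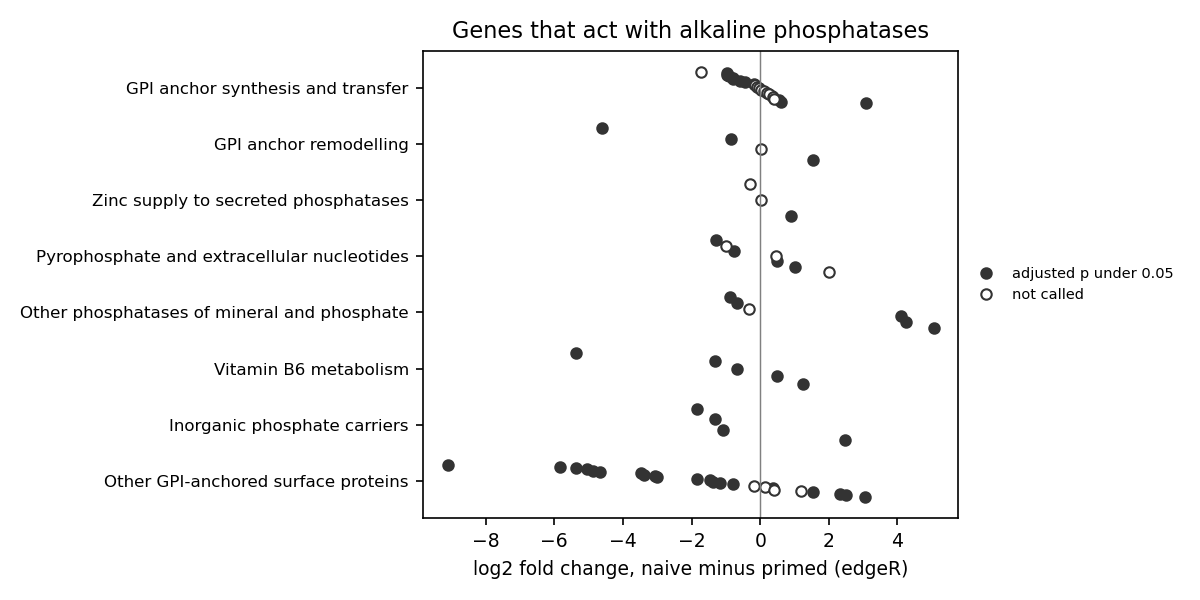
Log2 fold change, naive minus primed, of each tested gene in 8 lists of genes that act with alkaline phosphatases or share their anchor, filled where the adjusted p from edgeR is under 0.05. Of the 22 GPI synthesis genes 21 lie between -1.72 (PIGY, not called) and 0.60 and PIGL lies at 3.08, and 15 of 24 other GPI-anchored proteins lie to the left with filled symbols.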

How the data were processed

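The 6 libraries are polyadenylated RNA of sorted naive and of primed cells. The deposited values are whole-number counts per Ensembl gene identifier. The authors trimmed reads with cutadapt 1.15 under Trim Galore 0.4.4, mapped them with Bowtie2 to the cDNA and noncoding RNA of Ensembl release 100 (GRCh38), and counted per gene the alignments whose mapping quality was 1 or more. Whether counting used strand, and the read length, are not given in the sources used here. Another 23 columns of the table belong to other studies and stayed out. The 26 spike-in features were left out, and the 61196 identifiers were summed by name to 48183. Positions and transcript lengths came from GENCODE release 44, and promoters from RefSeq.

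Naive and primed libraries (4 against 2) were compared in R 4.3.3 with edgeR 4.0.16 (its quasi-likelihood fit and test, with TMM scaling and filterByExpr on the state, and no covariate), with Benjamini-Hochberg adjustment over all 26497 names and a threshold of 0.05. Alternatives used DESeq2 1.42.0, limma-voom (limma 3.58.1), other scalings, filters, a block for the parental line, 1 sum of both AICAR libraries, and the omission of single libraries. Folds over a parental library used no prior count, and 0 counts were read as 3 counts. The profile distances used a prior count of 0.5. The intervals are exact binomial intervals, at 95%. Tests were also run on simulated counts, whose changes were far smaller than those of the 2q37 genes. That run therefore lends the tests of these genes no support. No pair of naive libraries agreed within sampling noise (chi-square per gene 19.8 to 35.9), so none was merged. The members and the lists of other genes were chosen with earlier results of these data known. Named genes were all members, of each list up to 4 with the largest called change and those whose role bears on the members, the 3 nearest tested genes on either side, and the 5 most alike profiles. A few items that this rule takes in are not reported here.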

Additional observations from a re-analysis of the deposited data

Results flagged for a closer look

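The ALPG level of VPA naive (1976 CPM) stood apart from the 3 other naive libraries: its gap to the next was 0.888 of the range of the group. The summed level of the 4 genes was also lowest in VPA naive (2365 CPM), with a gap of 0.836 of the range. The 2 values share the same counts, since ALPG makes up most of the sum. Of 11 quantities checked these 2 were marked, and chance marks about 1 in 20.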

How the results depend on the processing

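Over all tested names, the number of genes called, and those called higher and lower, stayed within 1.5 times the value reported under each alternative run. ALPG was called higher under all 15 alternatives, and ALPP and ALPI under the 14 that could be run, because a filter of at least 10 counts in every library removes both. ALPP and ALPI pass the main filter only through their naive counts, so that being called in all 14 lends no added support. ALPL was higher in all 15 and called in 9: the log2 fold change was 0.30 with DESeq2, 0.30 with median-ratio size factors, and ran from 0.28 to 0.43 with single libraries left out. With library totals as the scaling the median of all tested names was 0.20 and ALPL stood at 0.44. No analysis paired by replicate number was possible because the labels number only the AICAR libraries, and the parental line as a block changed no call of a member.

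Per kilobase of transcript the mean naive shares were 85.5% for ALPG, 9.69% for ALPP and 0.181% for ALPI. Of 3 zinc genes 2 were called with DESeq2, with median-ratio size factors and with identifiers kept apart. Of the pyrophosphate genes 2 were called without a filter. With at least 10 counts in every library, 2 fibroblast, 2 trophoblast, 3 germ cell, 4 primed, 1 intestinal and 1 osteoblast marker were called, because fewer genes were tested. With single libraries left out, between 7 and 11 GPI synthesis genes, between 2 and 5 pyrophosphate genes and between 1 and 2 zinc genes were called. The lowest GPI count came without CA-p38 primed, the lowest pyrophosphate count without either primed library, and the highest zinc count without EOS primed. The cause of the other changes was not tested. Depth limits the primed side, where ALPG has 70 and 25 counts, ALPP 3 and 8, and ALPI 0 in both libraries.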
